A study of Mus musculus with 12 samples.

Results

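Chromatin accessibility at 10 genes was examined in thymic invariant natural killer T (iNKT) cells that lack or carry Hivep3. These genes encode the NF-κB transcription factor subunits (Nfkb1, Nfkb2, Rel, Rela and Relb) and regulators that NF-κB itself induces (Nfkbia, Nfkbie, Nfkbid, Nfkbiz and Tnfaip3). Members were all accessible regions that overlapped the body of 1 of these 10 genes or the 10 kb on either side of it. This gave 91 of the 63309 regions of the data set, each 500 bp long. Nfkb1 held 27 of them, Tnfaip3 12, Nfkbie 11, Nfkbiz 9, Nfkbid 8, Nfkbia 7, Nfkb2 6, Rela 4, Relb 4 and Rel 3. The rule that assigned regions to genes used no accessibility value, but the genes were chosen with earlier results of these data known.

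Accessibility was measured by ATAC-seq, in which a transposase inserts sequencing adapters into open chromatin. The cells were untreated thymocytes of the iNKT1, iNKT2 and iNKT17 subsets from 8 to 9 week old C57BL/6 mice, the wild type, or from Hivep3-/- mice on the C57BL/6 background. There were 2 libraries for each of the 6 combinations of subset and genotype, 12 in all. The titles number them as single mice, whereas the methods describe pooled thymi, so that p-values here measure the spread between these libraries, which may be technical. Subsets were first sorted one by one by CD122, ICOS, Izumo1r and CD138, mixed for transposition, and sorted again by ICOS and CD138 alone. Hivep3 was absent from the whole animal and not from iNKT cells alone. In such bulk samples, a change in every cell cannot be told apart from a change in the share of cells in which a region is open.

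NF-κB proteins are dimers that bind κB sites in DNA. In resting cells the IκB proteins, such as the products of Nfkbia and Nfkbie, hold them in the cytoplasm, and antigen receptor or cytokine signals trigger IκB destruction. Many of the genes that NF-κB then switches on encode its own brakes, among them Nfkbia and Tnfaip3, which is why NF-κB activity rises and falls in waves. In iNKT cells NF-κB activity is needed for survival and maturation in the thymus, and Hivep3 belongs to a family of large zinc finger proteins that can bind κB-like sequences.

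Values are the deposited log2 insertions per kb after normalization between libraries, so that a difference of 1 is a doubling and no insertion count or counting interval is available. A region counted as accessible, and was tested, if either group compared reached a mean of 5 insertions per kb on the linear scale. A region could thus enter a test through its higher group alone, which favours a difference in that direction. Differences were tested with limma over all 12 libraries, with Benjamini-Hochberg adjustment of p over the regions tested in that comparison. In the text a region "rose" or "fell" when its adjusted p was under 0.1, and it was called differentially accessible when the change was also at least 3-fold. The promoters of all 12 subset markers examined were highest in the subset they mark in both genotypes, although 3 of them (Il2rb, Izumo1r and Sdc1) encode proteins used for the sort. Promoters of 3 T cell genes had group means of 5.19 to 7.10. Of 10 markers of other cells, the B cell gene Pax5 (2.92 to 4.61) and the myeloid gene Spi1 (4.18 to 5.29) had a promoter region, and no region was listed at the promoters of the 4 double-positive thymocyte genes. Of the 21 regions of Hivep3 itself, 20 (iNKT1), 18 (iNKT2) and 12 (iNKT17) were tested between genotypes, and none was called by limma. In each subset 2 of them passed an adjusted p under 0.1 at any fold. Over all regions 5.49%, 8.26% and 2.66% passed as higher and 3.93%, 8.16% and 1.99% as lower. An unadjusted p under 0.05 was found for 5, 3 and 5, against 17.8%, 25.3% and 15.8% of all regions. The part of the gene that was deleted is not given in the sources used here, so this does not check the genotype.

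The sequences of the regions on which the results turn are shown here on the plus strand of GRCm38.p6 (mm10), with every match to the NF-κB consensus in capitals. The first is the centre of the region in Nfkb1 that was called between genotypes (chr3:135665851-135666150), which lies in an intron and holds no match. The others are stretches around the matches in the promoter regions of Nfkb1 (chr3:135691497-135691526), Nfkb2 (chr19:46304688-46304717, where 2 matches on opposite strands overlap), Nfkbia (chr12:55492648-55492940), Nfkbid (chr7:30422160-30422254) and Tnfaip3 (chr10:19015411-19015547). They were chosen to let the called intron be set beside promoters of a subunit, of both kinds of inhibitor and of Tnfaip3. A match is a description of the letters and not evidence of binding.
Nfkb1 intron: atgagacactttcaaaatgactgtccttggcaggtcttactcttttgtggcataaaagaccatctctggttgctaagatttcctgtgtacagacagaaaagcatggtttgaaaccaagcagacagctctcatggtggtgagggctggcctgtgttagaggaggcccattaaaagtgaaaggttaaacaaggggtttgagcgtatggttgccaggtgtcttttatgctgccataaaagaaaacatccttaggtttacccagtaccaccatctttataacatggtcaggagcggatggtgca
Nfkb1 promoter: cttcctggctGGAAATTCCCactgacgtcg
Nfkb2 promoter: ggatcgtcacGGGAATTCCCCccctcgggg
Nfkbia promoter: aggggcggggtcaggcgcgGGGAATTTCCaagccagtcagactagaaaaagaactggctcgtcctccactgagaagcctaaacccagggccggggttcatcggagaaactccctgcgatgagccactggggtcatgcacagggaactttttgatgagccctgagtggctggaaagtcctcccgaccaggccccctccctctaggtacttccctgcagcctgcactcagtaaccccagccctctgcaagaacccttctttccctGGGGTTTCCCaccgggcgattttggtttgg
Nfkbid promoter: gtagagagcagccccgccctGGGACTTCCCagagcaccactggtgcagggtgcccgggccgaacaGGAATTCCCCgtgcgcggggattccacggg
Tnfaip3 promoter: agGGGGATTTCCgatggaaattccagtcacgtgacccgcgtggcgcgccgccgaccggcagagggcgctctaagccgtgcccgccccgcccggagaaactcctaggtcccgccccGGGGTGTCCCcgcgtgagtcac

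Searched on both strands, the NF-κB consensus was found in 21 of the 91 member regions (23.1%, 95% Wilson interval 15.6 to 32.7, regions taken as independent) and in 8.60% of all 63309 regions of the same length. It was found in 5 of 11 regions of Nfkbie, 3 of 6 of Nfkb2, 3 of 7 of Nfkbia, 2 of 4 of Rela, 2 of 8 of Nfkbid, 2 of 12 of Tnfaip3, 2 of 27 of Nfkb1, 1 of 4 of Relb, 1 of 9 of Nfkbiz and 0 of 3 of Rel. A consensus with a looser centre was present in 26.4% of member regions and 13.6% of all regions. In the RefSeq promoter windows of 300 bases, 8 of 12 windows of the 7 members listed there held the consensus, against 4.51% of all 32851 windows. Some windows of a gene overlapped, and by gene 6 of the 7 had a window with the consensus. Nfkb1, Relb and Nfkbiz had no window. The window of Rel held 2 matches, although none lay in its accessible regions.

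Across the members, accessibility was more often higher than lower in Hivep3-/- cells, with changes that were mostly small. In iNKT1 cells 61 of 86 tested regions (70.9%) were higher in Hivep3-/- libraries, with a median log2 change of 0.11, against 46.6% and a median of −0.02 over all tested regions. In iNKT2 cells 66 of 88 (75.0%) were higher, with a median of 0.17, against 49.8% and −0.00. In iNKT17 cells 74 of 87 (85.1%) were higher, with a median of 0.23, against 48.1% and −0.01. Leaving out 1 library at a time gave 61.6 to 76.7%, 67.0 to 77.0% and 74.7 to 86.2% for the 3 subsets.

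Of the 83 member regions tested in all 3 subsets, 47 (56.6%) were higher in Hivep3-/- cells in each of them and 3 (3.61%) were lower in each, whereas 16.0% and 18.6% of all 46047 such regions did so. Within 1000 bp of a start of the member gene itself, 16 of 31 regions (51.6%) were higher in every subset. Of all regions within 1000 bp of a start of any protein-coding gene, 12.9% were. Elsewhere it was 31 of 52 (59.6%) against 18.3%. The 10 member regions within 1 kb of a start of another protein-coding gene were classed as elsewhere, so members and all regions were split by unlike definitions. Subsets of 1 genotype came from the same mice or pools and were transposed together, so the 3 comparisons are not independent. Without overlap of the genotypes, 32 member regions were higher and 8 lower in iNKT1 cells (25.7% and 28.0% of all tested regions), 44 and 9 in iNKT2 cells (27.3% and 26.4%), and 44 and 4 in iNKT17 cells (21.9% and 22.8%). The smallest two-sided exact permutation p that 2 libraries against 2 can give is 0.333.

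Few of these differences were large. A single member region of 86 was called in iNKT1 cells (background 1.15% of all tested regions), an intron of Nfkb1. None of 88 was called in iNKT2 cells (background 1.68%) and none of 87 in iNKT17 cells (background 0.271%) by limma, although 28 (31.8%) and 34 (39.1%) had an unadjusted p under 0.05. In iNKT1 cells 21 did (24.4%), and the shares of all tested regions were 17.8% for iNKT1, 25.3% for iNKT2 and 15.8% for iNKT17. At any fold, 9 regions rose and 0 fell in iNKT1 cells (background 5.49% higher and 3.93% lower), 18 rose and 2 fell in iNKT2 cells (8.26% and 8.16%), and 10 rose and 0 fell in iNKT17 cells (2.66% and 1.99%). These were 29 different regions, 12 of them in Nfkb1, 6 in Nfkbid, 4 in Nfkbiz, 3 in Nfkbie, 2 in Tnfaip3, 1 in Nfkb2 and 1 in Nfkbia. None lay at Rel, Rela or Relb. Of the 29, 10 passed in 2 subsets, 19 in 1 and 0 in all 3. The matching shares over all regions were not worked out, so the total of 29 and this split are a description only.

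The counts at any fold fell when single libraries of the compared groups were left out. In iNKT1 and iNKT17 cells this held without C57BL/6 replicate 1 or Hivep3-/- replicate 2. In iNKT2 cells it held without either library of either genotype. Such a fit leaves a group with 1 library. In iNKT1 and iNKT2 cells fewer of all regions then had an unadjusted p under 0.05 too. How much of the fall is particular to the members was not tested. As a stand-in for depth, the values in the lower part of a library, up to its median, were counted without repeats. There were 227 and 491 in Hivep3-/- against 139 and 170 in C57BL/6 iNKT1 libraries, 91 and 118 against 219 and 159 in iNKT2, and 85 and 73 against 142 and 134 in iNKT17. This count was thus higher in Hivep3-/- libraries in 1 subset and lower in the other two, while member regions were more often higher in Hivep3-/- cells in all 3. The part of depth in these results was not tested.

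**Figure D1:**
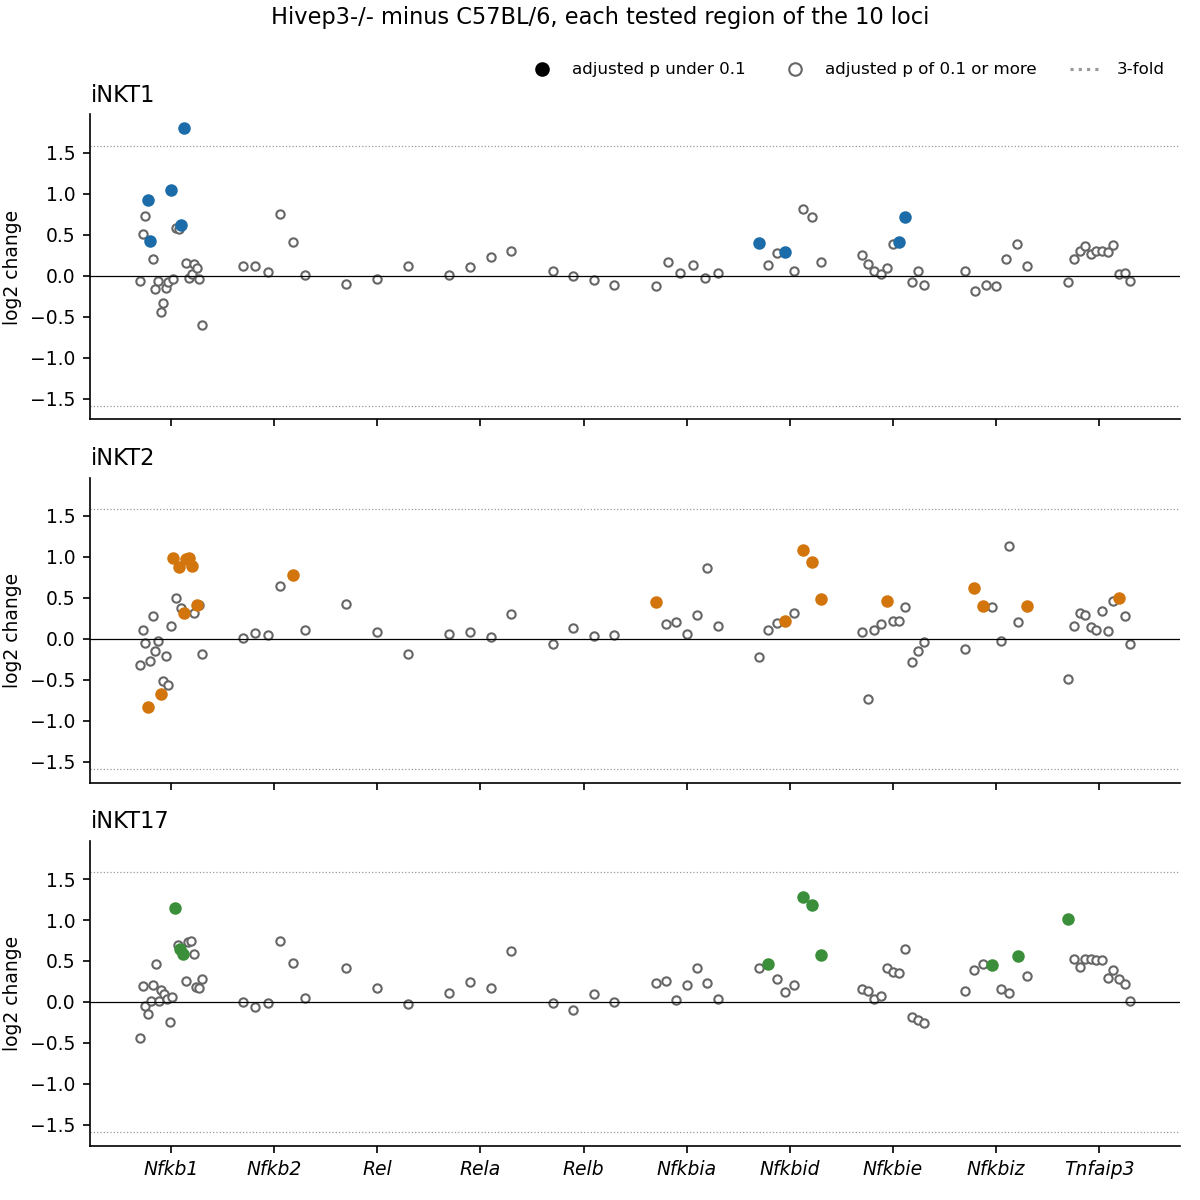
Log2 change of accessibility (Hivep3-/- minus C57BL/6, y axis) of every tested region of the 10 loci (x axis, by gene, regions in genomic order) in iNKT1, iNKT2 and iNKT17 cells. Filled points have an adjusted p under 0.1 in limma and dotted lines mark 3-fold. Of the tested regions, 61 of 86, 66 of 88 and 74 of 87 lie above 0, and 1 point, in Nfkb1 in iNKT1 cells, lies beyond 3-fold.

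Between subsets, the called regions were few. In C57BL/6 mice, 7 of 88 member regions were called between iNKT1 and iNKT2 cells (background 16.0%), 5 of 87 between iNKT1 and iNKT17 cells (20.5%) and 2 of 89 between iNKT2 and iNKT17 cells (16.2%). In Hivep3-/- mice the numbers were 6 of 89 (17.3%), 5 of 89 (19.3%) and 6 of 90 (15.6%). The calls fell on 10 regions in C57BL/6 and 11 in Hivep3-/- mice. Of 14 calls (a region in a pair of subsets) in C57BL/6 mice, 9 were also called in Hivep3-/- mice, or 9 of the 17 calls made there. At any fold 46, 35 and 47 regions differed in C57BL/6 mice (backgrounds 55.2%, 58.4% and 52.3%), and 49, 42 and 50 in Hivep3-/- mice (59.0%, 56.9% and 53.9%). All of the called regions lay at Nfkb1, Nfkbia, Nfkbie, Nfkbiz or Tnfaip3.

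Nfkb1 (ENSMUSG00000028163.17, chr3:135584655-135691547, minus strand) encodes the precursor of a DNA-binding subunit that lacks an activation domain of its own. Its called region lay in an intron 25.55 kb from the gene start (chr3:135665751-135666250) and is the one whose sequence is shown first above. In iNKT1 cells it read 4.24 and 4.23 in the C57BL/6 libraries and 5.97 and 6.10 in the Hivep3-/- libraries. C57BL/6 iNKT1 cells thus stood apart, since the other 4 groups read 6.02 and 6.21 (C57BL/6 iNKT2), 6.40 and 6.47 (Hivep3-/- iNKT2), 5.94 and 5.85 (C57BL/6 iNKT17) and 6.27 and 6.02 (Hivep3-/- iNKT17). It rose between genotypes by 1.80 in iNKT1 cells (SE 0.11, limma adjusted p = 2.65e-06) and by 0.32 in iNKT2 cells (adjusted p = 0.0782), and the iNKT17 change was 0.25 (adjusted p = 0.281). The rise in iNKT1 cells exceeded that in iNKT2 cells by 1.48 (adjusted p = 0.000498) and that in iNKT17 cells by 1.55 (adjusted p = 0.00105) in limma interaction tests. Leaving out any library kept the change in iNKT1 cells between 1.74 and 1.87, and a pseudocount of 5 on the linear scale lowered it to 1.57, just short of 3-fold.

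The same Nfkb1 intron separated the subsets in C57BL/6 mice, where iNKT1 cells differed by −1.88 from iNKT2 cells (limma adjusted p = 5.36e-08) and by −1.66 from iNKT17 cells (adjusted p = 4.54e-08). In Hivep3-/- mice the differences were −0.40 (adjusted p = 0.00696) and −0.11 (adjusted p = 0.431). Of the 27 regions of Nfkb1, iNKT1 cells had the lowest group mean of the 3 subsets in 17 in C57BL/6 and in 18 in Hivep3-/- mice.

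Other Nfkb1 regions changed by less than 3-fold. In introns at 14.27, 15.86, 29.62 and 51.06 kb, accessibility rose in iNKT2 cells by 0.98, 0.97, 0.87 and 0.98 (limma adjusted p between 0.011 and 0.0258). The region at 51.06 kb read 3.65 and 3.44 in C57BL/6 against 4.40 and 4.64 in Hivep3-/- iNKT2 cells, and 2.96 and 3.71 against 4.24 and 4.72 in iNKT17 cells, where it rose by 1.14 (adjusted p = 0.0349). In iNKT1 cells its values, 2.45 and 2.74 against 3.06 and 3.29, gave a change of 0.58 (adjusted p = 0.247). It is also the one Nfkb1 intron region with a match to the NF-κB consensus. At 28.96 kb iNKT1 cells gained 0.62 (adjusted p = 0.0259) and iNKT17 cells 0.58 (adjusted p = 0.0635).

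At 2 regions of Nfkb1, singled out for this difference, the change between genotypes was not the same in iNKT1 and iNKT2 cells. The exon at 100.85 kb (chr3:135590447-135590946) read 2.81 and 3.25 in C57BL/6 and 4.01 and 3.90 in Hivep3-/- iNKT1 cells, but 3.92 and 3.82 in C57BL/6 and 2.92 and 3.17 in Hivep3-/- iNKT2 cells. The groups did not overlap in either subset, and the order of the genotypes was turned around. Accessibility rose by 0.93 in iNKT1 cells (SE 0.19, limma adjusted p = 0.0123) and fell by 0.83 in iNKT2 cells (SE 0.19, adjusted p = 0.0166), a difference of 1.75 (adjusted p = 0.00328). In iNKT17 cells the change was −0.14 (adjusted p = 0.803). The region at 70.09 kb, near the start of a shorter transcript, rose by 1.04 in iNKT1 cells (adjusted p = 0.07), with a change of −0.57 (adjusted p = 0.286) in iNKT2 cells and a difference of 1.61 (adjusted p = 0.048). Of its iNKT1 groups only the Hivep3-/- group reached the accessible level. Some other regions towards the 3′ end had changes of 1 sign in both subsets, such as −0.34 and −0.51 at 84.37 kb, −0.45 and −0.67 at 86.75 kb and 0.20 and 0.28 at 96.48 kb. Of these, the −0.67 in iNKT2 cells passed the threshold (adjusted p = 0.0531). Others did not, such as the region at 97.07 kb, with 0.43 in iNKT1 and −0.27 in iNKT2 cells. There the difference was 0.70 (limma interaction adjusted p = 0.0108), under 3-fold. The regions at 100.85 and 70.09 kb were the 2 member regions called for a difference in the genotype change between iNKT1 and iNKT2 cells, out of 89 member regions tested (background 3.06%). Without C57BL/6 iNKT1 replicate 1 neither was called, and without any of 4 other libraries 1 was. The comparisons of iNKT1 with iNKT17 (90 tested, background 1.42%) and of iNKT2 with iNKT17 cells (90 tested, 1.02%) gave 0 calls in limma. There 12 (13.3%) and 6 (6.67%) member regions had an unadjusted p under 0.05, against 14.2% and 14.9% of all regions tested. At any fold, 6 of 89, 2 of 90 and 1 of 90 member regions passed in the 3 comparisons (backgrounds 10.5%, 3.64% and 3.29%). With the mouse number as a block within each genotype these were 13, 7 and 2 (backgrounds 18.4%, 8.52% and 9.30%).

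The main Nfkb1 promoter (chr3:135691221-135691720), whose single consensus match is shown above, read 5.61 at the lowest, 6.09 at the median and 6.91 at the highest of the 12 libraries, and its changes between genotypes were −0.04, 0.42 and 0.28 (limma adjusted p of 0.39 or more). Replicate 2 lay above replicate 1 in all 6 groups there. The Nfkb1 region with the largest difference between subsets was an intron at 61.44 kb (chr3:135629858-135630357), which read −0.11 and 0.91 in iNKT1, 2.10 and 2.09 in iNKT2 and 3.29 and 3.80 in iNKT17 cells of C57BL/6 mice. The subsets did not overlap, and iNKT1 differed from iNKT17 cells by −3.15 (SE 0.37, adjusted p = 8.56e-06), or by −2.64 to −3.65 when 1 library was left out. In Hivep3-/- mice the values were 1.28 and 1.58, 1.38 and 2.08, and 3.16 and 3.43, with a difference of −1.87 between iNKT1 and iNKT17 cells (adjusted p = 0.000785). In the opposite direction, a region at 83.69 kb read 3.94 and 3.53 in iNKT1 against 1.74 and 1.74 in iNKT2 cells of C57BL/6 mice (difference 2.00, adjusted p = 6.27e-05). In these comparisons at 61.44 and 83.69 kb the lower group lay under the accessible level.

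**Figure D2:**
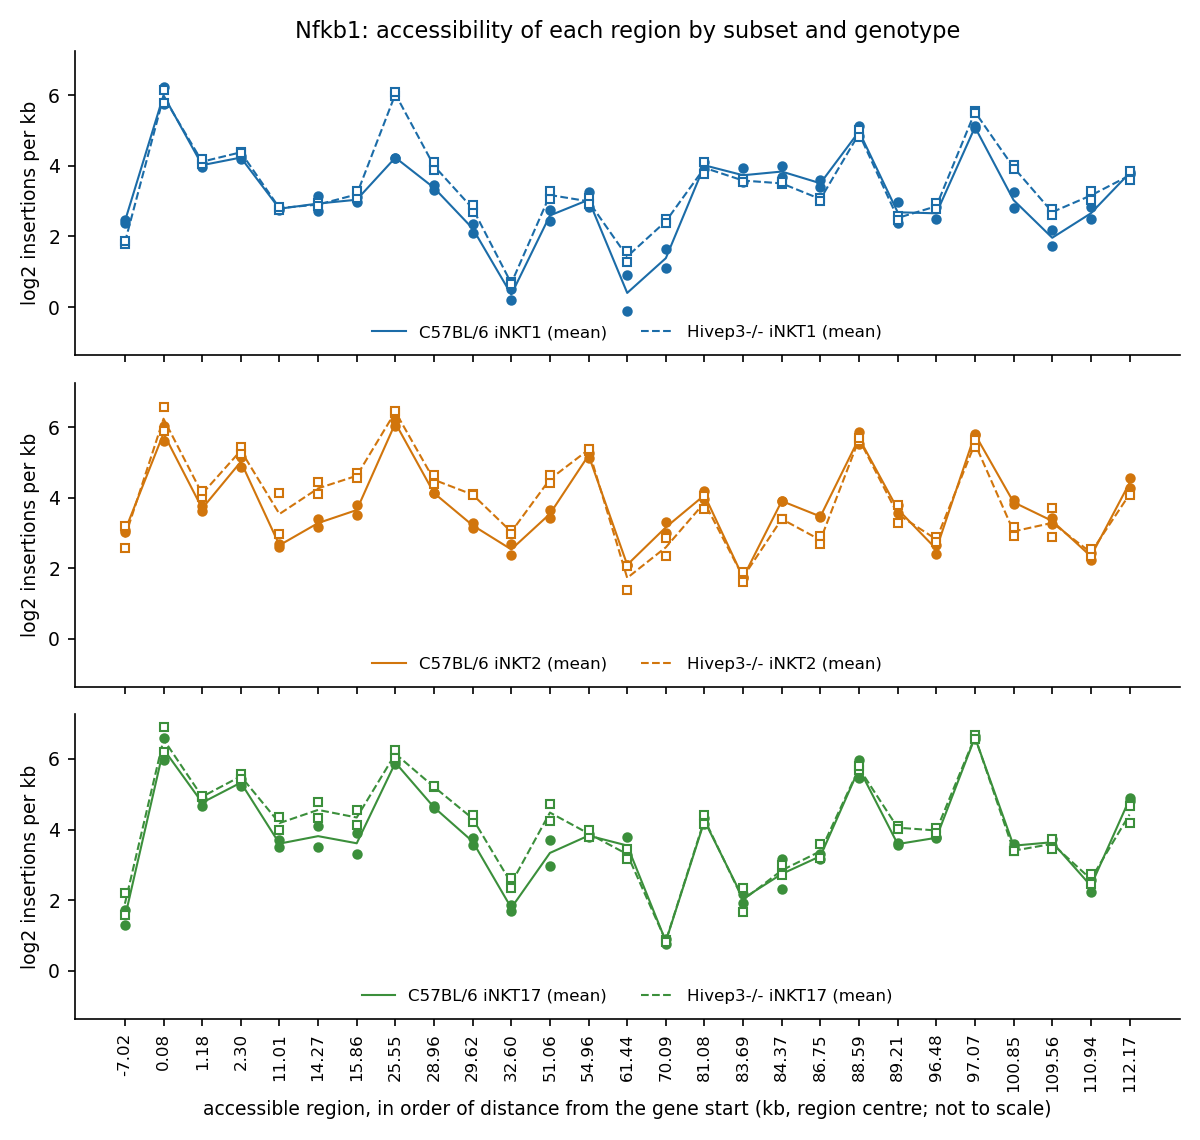
Accessibility (y axis, log2 insertions per kb) of the 27 regions of Nfkb1 in order of their distance from the gene start (x axis, kb, not to scale). Points are single libraries and lines are means of 2, with filled circles and solid lines for C57BL/6 and open squares and dashed lines for Hivep3-/-. At 25.55 kb the C57BL/6 iNKT1 libraries read 4.24 and 4.23 and the other 10 libraries lie between 5.85 and 6.47.

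Nfkb2 (ENSMUSG00000025225.15) encodes the precursor of the subunit that pairs with RelB in the alternative pathway. Its promoter (chr19:46304331-46304830), with 3 matches to the consensus, was among the most open regions, at 7.50 at the lowest, 7.57 at the median and 7.69 at the highest library, with changes of 0.12, 0.01 and −0.01 between genotypes (SE 0.06). The one Nfkb2 region that rose or fell at an adjusted p under 0.1 lay 10.75 kb from its start, near a start of the neighbouring gene Psd. In iNKT2 cells it read 5.07 and 5.54 in C57BL/6 and 5.96 and 6.21 in Hivep3-/- libraries, a rise of 0.78 (SE 0.19, limma adjusted p = 0.0194). The genotypes did not overlap there, and the same region read 5.15 and 5.53 against 5.58 and 5.92 in iNKT1 cells (change 0.41, adjusted p = 0.279) and 4.58 and 4.96 against 5.26 and 5.25 in iNKT17 cells (change 0.48, adjusted p = 0.228). The next region, at 10.12 kb and also near a start of Psd, did not pass the adjusted threshold in any subset. Its genotypes did not overlap in any subset either. It read 4.01 and 4.28 against 4.69 and 5.11 in iNKT1 cells (change 0.75). In iNKT2 cells it read 3.99 and 4.65 against 4.80 and 5.12, and in iNKT17 cells 3.25 and 4.01 against 4.15 and 4.61 (change 0.75). It cannot be told from these data whether these regions belong to Nfkb2 or to Psd.

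No region of the 3 activating subunits passed the adjusted threshold between genotypes in limma, and 1 region of Rela in iNKT1 cells and another in iNKT17 cells had an unadjusted p under 0.05. The promoter of Rel (chr11:23770559-23771058), whose product c-Rel is the subunit most tied to lymphocyte activation, read 6.57 and 7.01 in C57BL/6 and 6.65 and 7.18 in Hivep3-/- iNKT1 cells. All 4 iNKT1 libraries lay above the highest of the other 8, which was 6.54. Rel had its highest locus level (the mean over its regions) in iNKT1 cells of C57BL/6 mice, 4.98 and 4.99, then in iNKT2 cells, 4.73 and 4.85, and its lowest in iNKT17 cells, 4.49 and 4.59, and iNKT1 exceeded iNKT17 cells by 0.45 (limma adjusted p = 0.00132). In Hivep3-/- mice these levels were 4.88 and 5.07, 4.88 and 4.92, and 4.79 and 4.67, with a difference of 0.25 (adjusted p = 0.0325).

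The promoter of Rela (chr19:5637150-5637649), which encodes the main activating subunit of the canonical pathway, ranged from 6.26 to 6.99 over the 12 libraries with a median of 6.45, and its changes between genotypes were 0.01, 0.06 and 0.11. At Rela the spread between replicates was larger than these changes, and replicate 2 lay above replicate 1 in all 6 groups in 2 of its 4 regions. Across the members this held for 12 of 88 regions with a mean of at least 5 (13.6%), against 7.76% of all such regions, among them 3 of 7 of Nfkbia and 3 of 11 of Nfkbie. The strongest region of Relb (chr7:19628514-19629013), the subunit of the alternative pathway, read between 7.66 and 7.91, and the locus levels of Relb lay between 5.96 and 6.06 in all 12 libraries. The locus level of Relb changed between genotypes by −0.03, 0.04 and −0.01 (SE 0.06, limma adjusted p of 0.742 or more), and no pair of subsets differed at an adjusted p under 0.1.

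Of the cytoplasmic inhibitors, Nfkbia (ENSMUSG00000021025.8) encodes IκBα, the classical feedback inhibitor. Its promoter (chr12:55492490-55492989) with 2 consensus matches, shown above, read from 7.18 to 8.05 with a median of 7.59. Its changes between genotypes were 0.13, 0.06 and 0.21 (limma adjusted p of 0.534 or more). The region that separated the subsets lay 5.24 kb upstream (chr12:55497639-55498138). It read 1.28 and 1.74 in iNKT1, 3.54 and 3.21 in iNKT2 and 2.23 and 2.09 in iNKT17 cells of C57BL/6 mice, and 1.28 and 2.05, 4.06 and 4.43, and 1.32 and 3.46 in those of Hivep3-/- mice. iNKT2 cells were thus highest in both genotypes, and iNKT1 differed from them by −1.86 in C57BL/6 (SE 0.51, adjusted p = 0.00821) and by −2.57 in Hivep3-/- mice (adjusted p = 0.000825). The iNKT1 groups lay under the accessible level there. The Hivep3-/- iNKT17 replicates differed by more than the genotypes did in any subset. A region 9.74 kb from the start rose in Hivep3-/- iNKT2 cells from 4.98 and 5.01 to 5.41 and 5.48 (change 0.45, adjusted p = 0.0625).

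Nfkbie (ENSMUSG00000023947.8) encodes IκBε, another cytoplasmic inhibitor. Its promoter (chr17:45555320-45555819) varied little, from 5.89 to 6.18 over the 12 libraries. A pair of regions at 8.23 and 8.80 kb, next to the start of the neighbouring gene Slc35b2, rose in iNKT1 cells by 0.41 (limma adjusted p = 0.0705) and 0.71 (adjusted p = 0.0425). The latter read 4.54 and 4.86 in C57BL/6 against 5.23 and 5.60 in Hivep3-/- iNKT1 cells, 5.26 and 5.33 against 5.40 and 5.97 in iNKT2 cells, and 4.66 and 4.65 against 5.13 and 5.47 in iNKT17 cells. Hivep3-/- libraries were higher in each subset without overlap, with changes of 0.39 (adjusted p = 0.227) and 0.65 (adjusted p = 0.103) in the other two. An intron of Nfkbie at 1.65 kb with a consensus match rose by 0.46 in iNKT2 cells (adjusted p = 0.0674), from 5.28 and 5.22 to 5.54 and 5.88.

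Nfkbid (ENSMUSG00000036931.15) encodes IκBNS, a nuclear member of the IκB family that acts on NF-κB bound to DNA. Hivep3-/- cells had the higher mean in 8 of its 8 regions in the iNKT1 and iNKT17 subsets and in 7 of 8 in iNKT2 cells. The largest changes lay downstream of the gene. At 7.82 kb (chr7:30429306-30429805) the C57BL/6 and Hivep3-/- libraries read 3.17 and 3.51 against 3.96 and 4.35 in iNKT1 cells, 2.74 and 3.08 against 3.52 and 4.48 in iNKT2 cells, and 3.23 and 3.94 against 4.91 and 4.84 in iNKT17 cells. The genotypes did not overlap in any subset. The changes were 0.81 (SE 0.30, limma adjusted p = 0.15), 1.09 (adjusted p = 0.0346) and 1.29 (adjusted p = 0.0443). The regions at 8.69 kb, with changes of 0.72, 0.94 and 1.18, and at 10.26 kb, with 0.17, 0.49 and 0.57, also rose in iNKT2 and iNKT17 cells (adjusted p between 0.0457 and 0.0615).

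The Nfkbid promoter (chr7:30421973-30422472), with its 2 consensus matches, read 6.79 and 6.91 in C57BL/6 against 7.06 and 7.22 in Hivep3-/- iNKT1 cells, 6.80 and 6.74 against 6.96 and 7.02 in iNKT2 cells, and 7.0 and 7.10 against 7.15 and 7.21 in iNKT17 cells. Again all Hivep3-/- libraries lay above their C57BL/6 counterparts. The promoter rose by 0.29 in iNKT1 cells (limma adjusted p = 0.037) and iNKT2 cells gained 0.22 (adjusted p = 0.0825), whereas the iNKT17 difference was 0.13 (adjusted p = 0.467). A region 3.59 kb upstream rose by 0.40 in iNKT1 cells (adjusted p = 0.0893) with a change of −0.23 in iNKT2 cells, and one 1.86 kb upstream, near a start of Hcst, rose by 0.46 in iNKT17 cells (adjusted p = 0.035).

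Nfkbiz (ENSMUSG00000035356.17) encodes IκBζ, a nuclear cofactor that NF-κB needs for some of its targets and that takes part in the program of cells producing interleukin 17. Its most open region (chr16:55821933-55822432, at an internal start 16.72 kb from the gene's 5′ end) read from 6.41 to 7.10, with changes of 0.21, −0.02 and 0.11 between genotypes. At the 5′ start itself (chr16:55838559-55839058), where the one Nfkbiz consensus match lies, C57BL/6 and Hivep3-/- libraries read 5.93 and 6.01 against 6.26 and 6.46 in iNKT1, 5.38 and 5.48 against 5.40 and 5.87 in iNKT2, and 5.77 and 5.77 against 6.25 and 6.40 in iNKT17 cells. The genotypes overlapped in iNKT2 cells alone, and this start rose by 0.56 in iNKT17 cells (SE 0.14, limma adjusted p = 0.0512), with changes of 0.39 (adjusted p = 0.122) and 0.20 (adjusted p = 0.392) in iNKT1 and iNKT2 cells. Regions at −0.49, 18.53 and 19.27 kb rose in iNKT2 cells by 0.40, 0.40 and 0.63 (adjusted p between 0.0277 and 0.0672).

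A region of Nfkbiz downstream of the gene, 33.92 kb from its start (chr16:55804733-55805232), marked iNKT17 cells in both genotypes. In C57BL/6 mice it read 2.23 and 0.99 in iNKT1, 1.20 and 1.23 in iNKT2 and 3.40 and 3.69 in iNKT17 cells, and in Hivep3-/- mice 1.49 and 1.46, −0.13 and 0.35, and 3.70 and 3.66. All 4 iNKT17 libraries lay above the other 8. iNKT2 differed from iNKT17 cells by −2.33 in C57BL/6 (SE 0.37, limma adjusted p = 0.000169) and by −3.57 in Hivep3-/- mice (adjusted p = 5.16e-06). The change between genotypes in iNKT17 cells was 0.14 (adjusted p = 0.915), and in the other subsets the region was below the accessible level and was not tested.

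Tnfaip3 (ENSMUSG00000019850.11, chr10:19000910-19015657, minus strand) encodes a ubiquitin-editing enzyme that shuts off signalling upstream of NF-κB. Of the 10 loci it had the widest range of group means. iNKT2 cells had the lowest mean of the 3 subsets in 12 of its 12 regions in both genotypes. In C57BL/6 mice 11 of the 12 were higher in iNKT1 than in iNKT2 cells at an adjusted p under 0.1 in limma (27.3% of all tested regions). Likewise 11 were higher in iNKT17 than in iNKT2 cells (23.3% of all tested regions). Neighbouring regions of 1 locus are not independent results. The difference was small at the promoter (chr10:19015085-19015584), which read 7.02 and 7.03 in iNKT1, 6.75 and 6.80 in iNKT2 and 6.97 and 6.98 in iNKT17 cells (iNKT1 minus iNKT2 0.25, adjusted p = 0.0179). It was larger within and behind the gene, as at 2.62 kb, where the same groups read 5.23 and 5.25, 4.04 and 3.60, and 4.76 and 5.03 (iNKT1 minus iNKT2 1.42, adjusted p = 2.8e-05). The called region lay 16.62 kb from the start, downstream of the gene (chr10:18998784-18999283). It read 5.62 and 5.07 in iNKT1, 3.61 and 3.41 in iNKT2 and 4.12 and 4.74 in iNKT17 cells of C57BL/6 mice, and 5.15 and 5.38, 2.72 and 3.33, and 5.42 and 5.48 in Hivep3-/- mice. iNKT1 exceeded iNKT2 cells by 1.83 in C57BL/6 (SE 0.24, adjusted p = 3.82e-05) and by 2.24 in Hivep3-/- mice (adjusted p = 5.25e-06). Without C57BL/6 iNKT1 replicate 1 the first difference was 1.56, under 3-fold.

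The same Tnfaip3 region rose by 1.02 in Hivep3-/- iNKT17 cells (SE 0.24, limma adjusted p = 0.0484), while its change was −0.49 in iNKT2 cells (adjusted p = 0.235) and −0.08 in iNKT1 cells (adjusted p = 0.941). The change in iNKT2 cells differed from that in iNKT17 cells by −1.50 (adjusted p = 0.0514). In Hivep3-/- mice iNKT1 and iNKT17 cells differed there by −0.18 (adjusted p = 0.575). All 12 Tnfaip3 regions had changes between 0.01 and 1.02 in iNKT17 cells, of which this 1 passed the adjusted threshold and 6 had an unadjusted p under 0.05. A region at 3.51 kb rose by 0.50 in iNKT2 cells (adjusted p = 0.0302), from 4.56 and 4.39 to 5.13 and 4.81. The Tnfaip3 promoter itself changed by −0.07, −0.06 and 0.01 (SE 0.08).

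**Figure D3:**
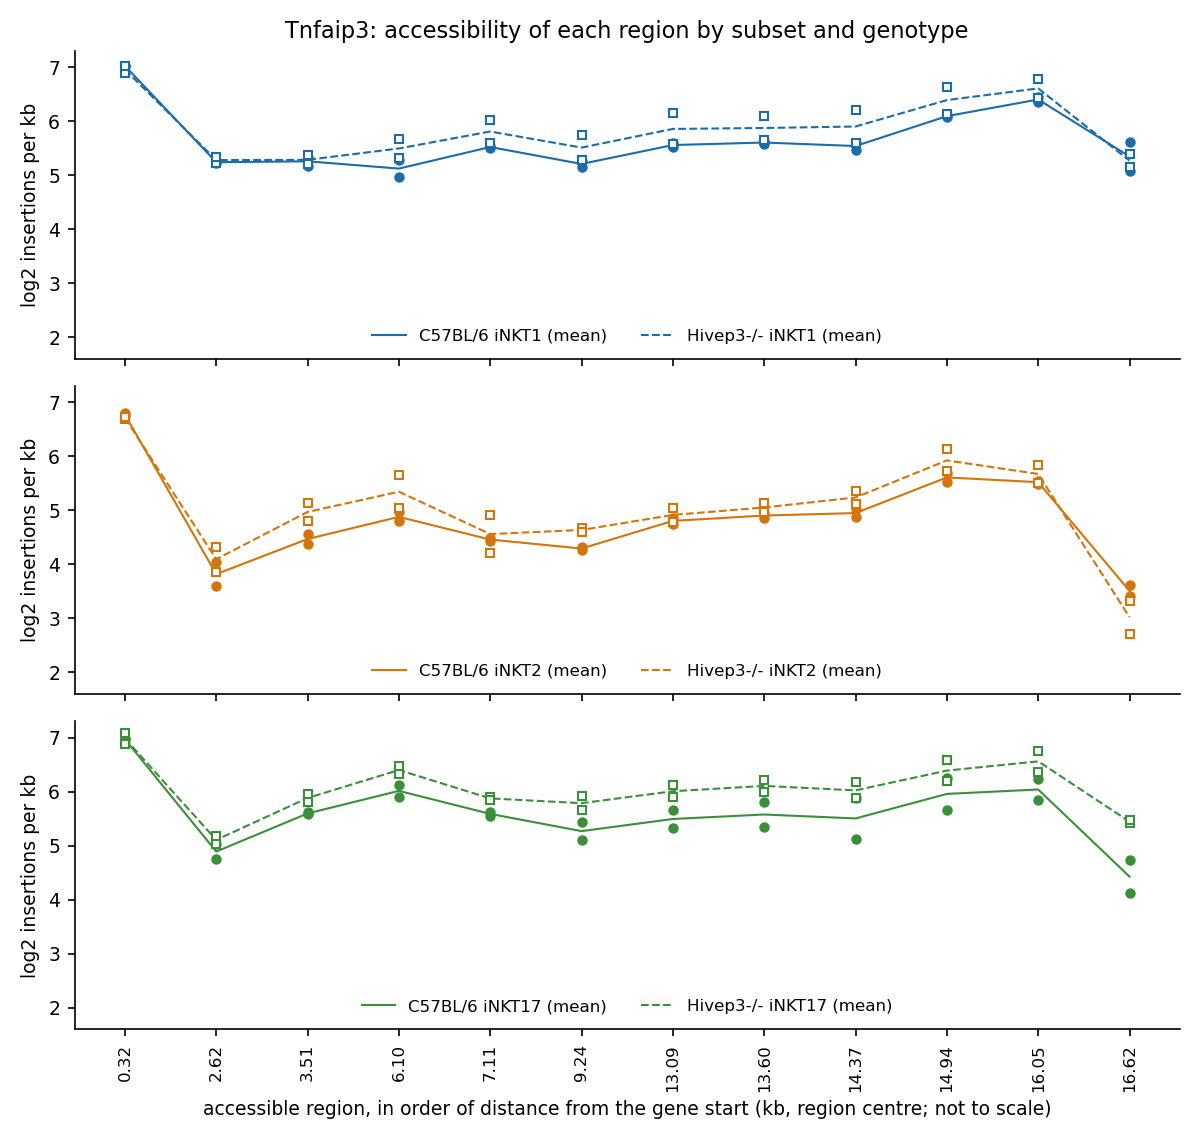
Accessibility (y axis, log2 insertions per kb) of the 12 regions of Tnfaip3 in order of their distance from the gene start (x axis, kb, not to scale). Points are single libraries and lines are means of 2, with filled circles and solid lines for C57BL/6 and open squares and dashed lines for Hivep3-/-. The promoter at 0.32 kb reads 6.70 to 7.08 in all 12 libraries, whereas at 16.62 kb the 4 iNKT2 libraries read 2.72 to 3.61 and the other 8 read 4.12 to 5.62.

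**Figure D4:**
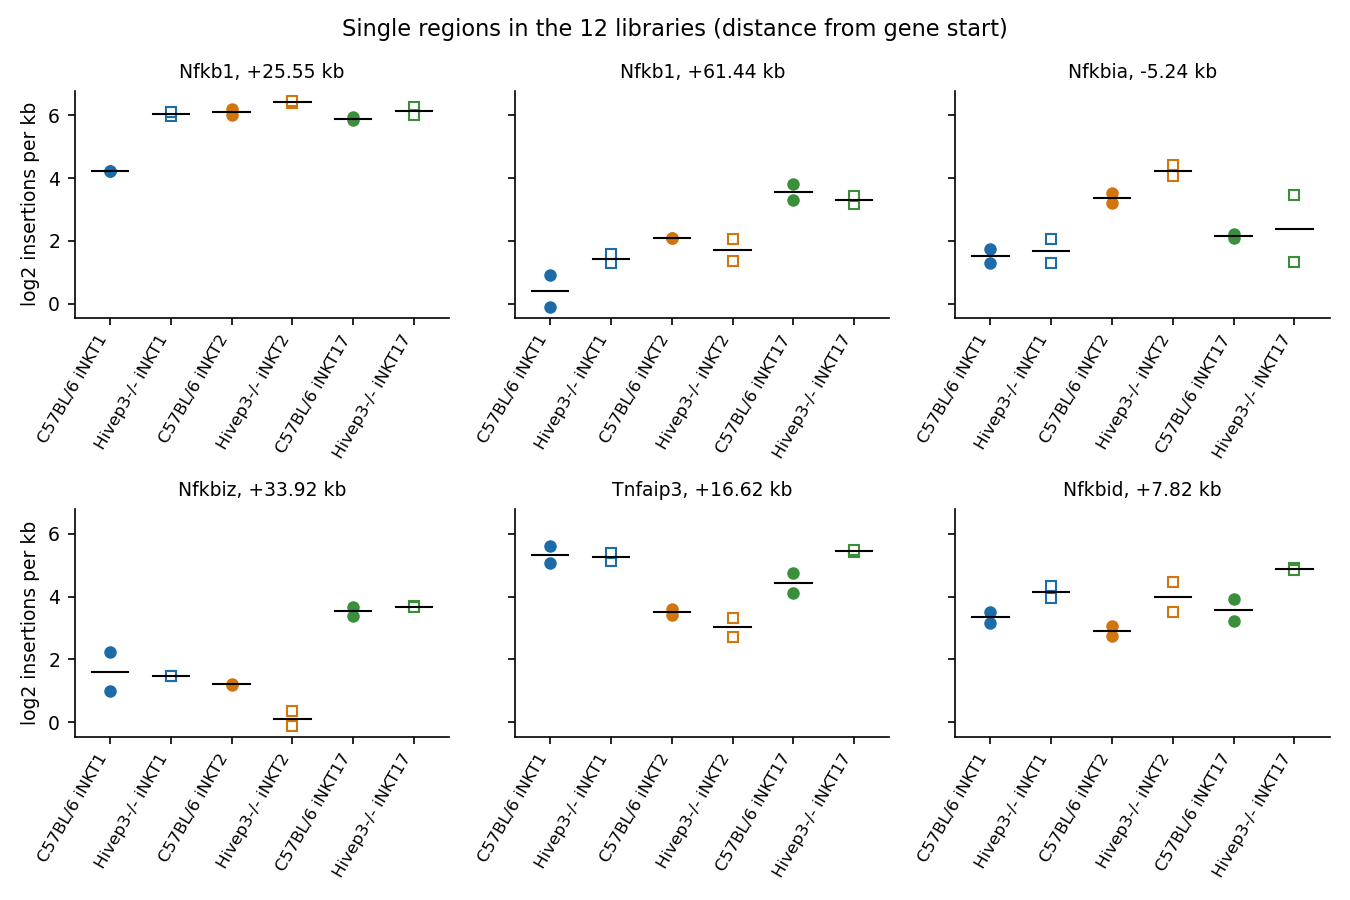
Accessibility (y axis, log2 insertions per kb) of 6 single regions in the 6 groups (x axis), 2 libraries each, with filled circles for C57BL/6, open squares for Hivep3-/- and a bar at the mean. C57BL/6 iNKT1 libraries stand apart at 25.55 kb of Nfkb1 (4.24 and 4.23), iNKT17 libraries at 33.92 kb of Nfkbiz (3.40 to 3.70), and Hivep3-/- libraries lie above C57BL/6 libraries in each subset at 7.82 kb of Nfkbid.

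To see whether changes spread over a locus, the log2 values of its accessible regions were averaged and tested in limma beside those of 15405 protein-coding genes. At this level, with the 10 kb on either side included, Nfkbid rose in Hivep3-/- cells in every subset. Its C57BL/6 and Hivep3-/- libraries read 5.08 and 5.16 against 5.35 and 5.60 in iNKT1, 4.88 and 4.87 against 5.17 and 5.37 in iNKT2, and 5.09 and 5.28 against 5.71 and 5.80 in iNKT17 cells, with no overlap. The changes were 0.36 (SE 0.10, adjusted p = 0.075), 0.39 (adjusted p = 0.0381) and 0.57 (adjusted p = 0.0285), and no difference in this change between subsets passed the threshold (interaction adjusted p of 0.586 or more). Over the gene body alone the changes were 0.21 (adjusted p = 0.221), 0.24 (adjusted p = 0.0996) and 0.21 (adjusted p = 0.261), and with 50 kb on either side 0.14 (adjusted p = 0.33), 0.22 (adjusted p = 0.0914) and 0.29 (adjusted p = 0.0771). The call in iNKT17 cells was also lost with only the compared groups (adjusted p = 0.144) and that in iNKT1 cells without the variance trend (adjusted p = 0.104). The call was kept in 7, 9 and 10 of 12 fits that left out 1 library. It was lost in iNKT1 cells without either C57BL/6 iNKT1, either C57BL/6 iNKT2 or the second Hivep3-/- iNKT1 library (adjusted p up to 0.485), in iNKT2 cells without either C57BL/6 or the second Hivep3-/- library of that subset (up to 0.188), and in iNKT17 cells without the first C57BL/6 or second Hivep3-/- library (up to 0.165).

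The other locus-level rises were those of Nfkb2 in iNKT2 cells, by 0.27 (limma adjusted p = 0.0837, kept in 6 of 12 such fits), and of Nfkbiz in iNKT17 cells, by 0.32 (adjusted p = 0.089, kept in 1 of 12). The Nfkb2 locus includes 3 regions near starts of Psd, and over the gene body alone its change was 0.04 (adjusted p = 0.806), with 50 kb on either side 0.03 (adjusted p = 0.748) and from linear values 0.15 (adjusted p = 0.157). This call was also lost with only the compared groups (adjusted p = 0.106) and without the variance trend (adjusted p = 0.119). For Nfkbiz the gene body gave 0.34 (adjusted p = 0.153), 50 kb on either side −0.04 (adjusted p = 0.768) and only the compared groups an adjusted p of 0.255. Of the 10 loci, the number called was 1 for iNKT1 (9.27% of all loci), 2 for iNKT2 (16.6%) and 2 for iNKT17 cells (4.41%). Nfkb1 had changes of 0.27, 0.13 and 0.25 (adjusted p of 0.129 or more) and Tnfaip3 of 0.19, 0.18 and 0.44 (adjusted p of 0.143 or more).

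Between subsets, 5, 3 and 5 of the 10 loci differed in C57BL/6 mice (iNKT1 against iNKT2, iNKT1 against iNKT17 and iNKT2 against iNKT17, against 55.2%, 57.5% and 52.5% of all loci), and 3, 6 and 5 in Hivep3-/- mice (57%, 55.3% and 53.6%). With the mouse number as a block the counts were 6, 5 and 6 in C57BL/6 (62.8%, 64.6% and 60.7% of all loci) and 5, 6 and 6 in Hivep3-/- mice (64.9%, 63.1% and 61.5%). In C57BL/6 mice, Nfkb1 was lowest in iNKT1 cells, with levels of 3.14 and 3.16, against 3.77 and 3.79 in iNKT2 and 3.75 and 3.86 in iNKT17 cells. Differences of −0.63 (limma adjusted p = 0.000238) and −0.66 (adjusted p = 0.000124) set iNKT1 cells apart, while iNKT2 and iNKT17 cells did not differ beyond their spread (−0.03, adjusted p = 0.821). For Tnfaip3, iNKT2 cells stood apart, with 4.88 and 4.79 in iNKT2 against 5.66 and 5.65 in iNKT1 and 5.45 and 5.78 in iNKT17 cells. iNKT1 exceeded iNKT2 cells by 0.82 (adjusted p = 0.000749) and iNKT2 differed from iNKT17 cells by −0.78 (adjusted p = 0.00105), whereas iNKT1 and iNKT17 cells were 0.04 apart (adjusted p = 0.823). Nfkbia was lower in iNKT1 than in iNKT2 cells (−0.46, adjusted p = 0.0287). Nfkbid and Nfkbiz were each lower in iNKT2 than in iNKT17 cells, with −0.31 (adjusted p = 0.032 and 0.0116), and Nfkb2 was higher, with 0.31 (adjusted p = 0.0183). These differences had the same direction in Hivep3-/- mice (Nfkb1 −0.49 and −0.64, Tnfaip3 0.84 and −1.04, Nfkbia −0.73, Nfkbid −0.48, Nfkbiz −0.42 and Nfkb2 0.38, adjusted p of 0.00581 or less). A further 3 locus calls made in C57BL/6 were not made in Hivep3-/- mice. Rel was 0.20 higher in iNKT1 than in iNKT2 cells of C57BL/6 mice (adjusted p = 0.0839) and 0.08 in Hivep3-/- mice (adjusted p = 0.485), and between iNKT2 and iNKT17 cells it differed by 0.25 (adjusted p = 0.0357) and 0.17 (adjusted p = 0.125, or 0.0933 with the mouse block). Nfkbid was 0.24 higher in iNKT1 than in iNKT2 cells of C57BL/6 mice (adjusted p = 0.0813) and 0.21 in Hivep3-/- mice (adjusted p = 0.124, or 0.0264 with the block). None of these 3 differences between subsets was called as different between the genotypes (limma interaction adjusted p of 0.65 or more). Other loci were called in Hivep3-/- but not in C57BL/6 mice. Between iNKT1 and iNKT17 cells these were Nfkb2 (0.21, 0.17 in C57BL/6), Nfkbia (−0.35, −0.20) and Nfkbid (−0.28, −0.07). Between iNKT2 and iNKT17 cells it was Nfkbia (0.38, 0.26). With the mouse block, all but Nfkbid were also called in C57BL/6 mice (limma adjusted p of 0.0936 or less). Their interaction adjusted p was 0.586 or more.

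**Figure D5:**
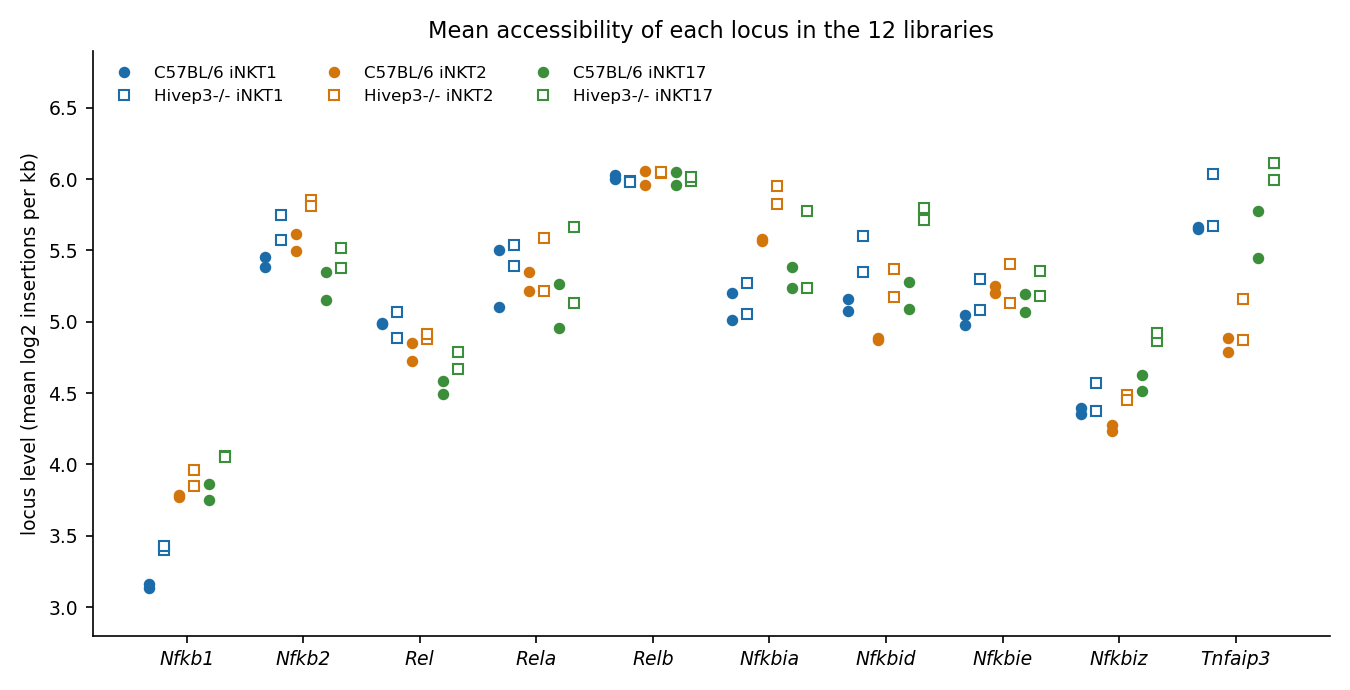
Locus level of the 10 genes (y axis, mean log2 insertions per kb over the accessible regions of the locus) in each library, with filled circles for C57BL/6 and open squares for Hivep3-/-, in blue for iNKT1, orange for iNKT2 and green for iNKT17 cells. Nfkb1 reads 3.14 and 3.16 in C57BL/6 iNKT1 cells and Tnfaip3 4.88 and 4.79 in C57BL/6 iNKT2 cells, while Relb stays between 5.96 and 6.06 in all 12 libraries.

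Member regions with the NF-κB consensus were more often higher in Hivep3-/- cells than those without, at 17, 18 and 19 of 21 in iNKT1, iNKT2 and iNKT17 cells, against 44 of 65, 48 of 67 and 55 of 66. Over all regions of the data set the shares were 59.3%, 56.4% and 65.4% with and 45.4%, 49.2% and 46.5% without the consensus. The share was thus above that of all regions also in the member regions without a match (67.7%, 71.6% and 83.3%). Regions share base composition and locus, and no test was made.

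The members whose loci varied most over the 6 groups were Tnfaip3, Nfkb1 and Nfkbid. Over the 12 libraries, the loci most like Tnfaip3 in Pearson correlation were Rnf39 (0.975), Selplg (0.973) and Ezr (0.967). Those most like Nfkb1 were P4ha2 (0.985), Iglon5 (0.981) and Kank1 (0.973), and those most like Nfkbid were Saraf (0.951), Prdx6 (0.946) and Fosl2 (0.925), the gene of a bZIP transcription factor. These are the highest of 15405 loci over libraries that fall into 6 groups, and are given as a description.

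The kinases, adapters, ubiquitin enzymes and remaining inhibitors of the pathway were taken as 19 further genes, chosen for their known roles, with 137 regions. Of these, 3 of 125 tested regions were called in iNKT1 cells, all higher in Hivep3-/- cells, 2 of 131 in iNKT2 cells, 1 in each direction, and 0 of 118 in iNKT17 cells by limma, where 26 (22.0%) had an unadjusted p under 0.05, against 15.8% of all regions. The called shares were 2.40%, 1.53% and 0%, against 1.15%, 1.68% and 0.271% of all regions. At any fold 10 rose and 1 fell in iNKT1 (all regions 5.49% and 3.93%), 23 rose and 2 fell in iNKT2 (8.26% and 8.16%), and 9 rose and 1 fell in iNKT17 cells (2.66% and 1.99%). In iNKT1 cells, a region of Otulin, which trims linear ubiquitin chains, read 2.50 and 2.62 in C57BL/6 and 4.40 and 4.56 in Hivep3-/- libraries (change 1.92, adjusted p = 3.48e-05). Map3k14, the kinase NIK that starts the alternative pathway, read 4.25 and 4.52 against 6.10 and 6.21 in an exon (1.77, adjusted p = 5.81e-05), and Tnip1, a partner of the Tnfaip3 protein, 3.13 and 3.21 against 4.67 and 4.88 (1.61, adjusted p = 0.000498). As at the Nfkb1 intron, the genotypes did not overlap in any of them, but these regions were chosen because they were called. In iNKT2 cells an Otulin intron read 1.74 and 0.51 against 3.05 and 2.92 (1.87, adjusted p = 0.0172), and a region upstream of Traf6, an adapter and ubiquitin ligase, read 3.12 and 3.06 against 0.51 and 0.10 (−2.78, adjusted p = 0.0124). In each of these iNKT2 comparisons only the higher group reached the accessible level, so the filter favoured the direction found.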

How the data were processed

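According to the methods of the study and the processing notes of the submitters, Trimmomatic 0.39 shortened the reads to 50 bp, the ENCODE ATAC-seq pipeline mapped them to mm10 and called peaks on subsampled reads, and chromVAR reduced the merged peaks of all replicates to regions of 500 bp. The authors counted insertions and normalized them with voom, and the deposited values are log2 insertions per kb. Insertion counts are not part of these values, so depth is not known. All 12 columns were mapped to a library by their names.

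From these log2 values, limma 3.58.1 in R 4.3.3 fitted the means of 6 groups over all 12 libraries and let the prior variance follow the mean (residual degrees of freedom 6, prior 7.17). Contrasts compared genotypes within subsets, subsets within genotypes, and genotype changes between subsets. A region was tested if a group in the contrast reached 5 insertions per kb on average, and calls needed a Benjamini-Hochberg adjusted p under 0.1 and 3-fold. Genes were taken from GENCODE vM21 and sequences from the RefSeq copy of GRCm38.p6, read with pysam 0.24.0 and with all coordinates counted from 1. On simulated data with log2 changes of 2.5 at 200 strongly open regions in each subset, 199 were recovered in each. There were 2, 2 and 4 false calls. Changes as small as most of those at the members were not simulated.

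The members and gene lists were chosen with earlier results of these data known. Regions named by rule were the most open promoter region of each member, every region called between genotypes, for each member the called region with the largest difference between C57BL/6 subsets, the 3 loci most like each of the 3 most variable members, and up to 6 called pathway regions. Other regions were named with their values already known. The titles tie the subsets of a genotype to a mouse number, and deviations of libraries with the same number correlated with 0.163 to 0.237 within a genotype, so that fits with this number as a block are given beside comparisons of subsets where they move a count of calls by over 1.5 times or change a call named there. Alternatives were other filters, pseudocounts, thresholds, normalization, variance models, locus windows, a replicate block and leaving out each library.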

Additional observations from a re-analysis of the deposited data

Results flagged for a closer look

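At 7 member regions the change between genotypes differed between 2 subsets at an adjusted p under 0.1 in limma, in 9 tests of such a difference. These were 6 of 89 regions for iNKT1 against iNKT2, 2 of 90 for iNKT1 against iNKT17 and 1 of 90 for iNKT2 against iNKT17 cells, against 10.5%, 3.64% and 3.29% of all regions tested. At the Nfkb1 intron at 25.55 kb the change in iNKT1 cells exceeded that in iNKT2 cells by 1.48 (adjusted p = 0.000498) and that in iNKT17 cells by 1.55 (adjusted p = 0.00105). At the Nfkb1 exon at 100.85 kb the iNKT1 change was 0.93, the iNKT2 change −0.83 and the iNKT17 change −0.14, with differences of 1.75 (adjusted p = 0.00328) and 1.07 (adjusted p = 0.0723). The Nfkb1 region at 97.07 kb, near an internal start, changed by 0.43 in iNKT1 and −0.27 in iNKT2 cells, a difference of 0.70 (adjusted p = 0.0108). At 70.09 kb of Nfkb1 the difference between these subsets was 1.61 (adjusted p = 0.048).

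At the Tnfaip3 region at 16.62 kb the change in iNKT2 cells differed from that in iNKT17 cells by −1.50 (adjusted p = 0.0514). The Nfkbid region 3.59 kb upstream changed by 0.40 in iNKT1 and −0.23 in iNKT2 cells, a difference of 0.63 (adjusted p = 0.0586). The Nfkbiz region at 19.27 kb changed by −0.18 in iNKT1 and 0.63 in iNKT2 cells, a difference of −0.81 (adjusted p = 0.0823).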

How the results depend on the processing

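Groups of 2 libraries limit every test here, and the counts of called regions depend on the fold threshold. Counts over all regions moved too. In iNKT1, iNKT2 and iNKT17 cells, 482, 261 and 72 of all tested regions were called higher and 143, 662 and 75 lower. At 2-fold these were 1322, 1195 and 377 higher and 606, 1617 and 366 lower. With a pseudocount of 5 they were 19, 16 and 2 higher and 7, 52 and 6 lower. A member count alone thus does not set the members apart from all regions. Counts are given in the order iNKT1, iNKT2 and iNKT17 for genotypes, and iNKT1 against iNKT2, iNKT1 against iNKT17 and iNKT2 against iNKT17 for pairs of subsets. With a 2-fold threshold, 2, 1 and 4 member regions were called between genotypes, 11, 13 and 13 between subsets in C57BL/6 and 17, 15 and 17 in Hivep3-/- mice, 2 and 1 for the difference in genotype change between iNKT17 and the other subsets (iNKT1 first), and 20 in the other pathway genes, against 5. A pseudocount of 5 gave 0 between genotypes in iNKT1 cells, 2, 0 and 0 between subsets in C57BL/6, 2, 0 and 1 in Hivep3-/- mice, 0 for iNKT1 against iNKT2 in the genotype change and 0 in the pathway genes. A pseudocount of 1 gave 4 and 3 for the first pairs in C57BL/6, 1 and 3 for the last pairs in Hivep3-/- mice, 1 for the genotype change and 3 in the pathway genes. Windows of 50 kb gave 2 in iNKT2 cells, 18, 16 and 6 between subsets in C57BL/6, 20, 18 and 11 in Hivep3-/- mice, and 4 and 1 for the genotype change. Gene bodies alone gave 3 and 1 for the last pairs in C57BL/6 and 2 for the last in Hivep3-/- mice. Testing the regions with an average of 5 or more across the 12 libraries gave 1 for iNKT2 against iNKT17 in C57BL/6, 3 for iNKT1 against iNKT17 in Hivep3-/- mice, 1 for the genotype change and 3 in the pathway genes, and renewed quantile normalization 1 for the genotype change.

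The number of member loci called in iNKT1 cells was 2 with pseudocounts of 1 and 5, with 50 kb windows and from linear values, and 0 with gene bodies alone. In iNKT2 cells it was 1 without the variance trend, and in iNKT17 cells 0 with only the compared groups or gene bodies alone. Regions at any fold, settings chosen after seeing the data, numbered 16 with only the compared groups in iNKT1 cells, and 16, 18 and 5 with pseudocounts of 1 and 5 and without the trend in iNKT17 cells.

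Leaving out each library in turn gave 1 to 1, 0 to 1 and 0 to 1 calls between genotypes, 5 to 8, 3 to 5 and 2 to 4 between subsets in C57BL/6, 5 to 8, 4 to 7 and 4 to 7 in Hivep3-/- mice, 0 to 2, 0 to 1 and 0 to 1 for the genotype change, 0 to 1, 0 to 3 and 0 to 2 loci, 4 to 6 in the pathway genes, and 2 to 12, 4 to 23 and 0 to 11 regions at any fold. Each of these fits left a group with 1 library, and the calls over all regions moved as well. The locus change of Nfkbiz in iNKT17 cells turned to −0.042 with 50 kb windows, and no other result recomputed here changed its direction. The 5 single-region differences recomputed in each setting were those of Nfkb1 at 25.55 kb in iNKT1 cells between genotypes, and of Nfkb1 at 61.44 kb, Nfkbia, Nfkbiz and Tnfaip3 between subsets in C57BL/6 mice. Of these, 0 reached 3-fold with a pseudocount of 5, and that at Nfkbia was −1.56 with a pseudocount of 1.

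Between genotypes the samples share only a number. With this replicate number as a block, 21, 36 and 34 member regions passed at any fold, against 14.8%, 24.8% and 11.3% of all regions, and 3, 4 and 5 loci were called, against 15.2%, 24.9% and 11.1% of all loci. The direction of the passing regions was higher in 21, 32 and 33. Calls at 3-fold kept their number under the block in every comparison. Deviations of same-numbered libraries correlated with 0.149 to 0.225 between genotypes in a subset, and 0.143 to 0.242 between groups that differ in both.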
